A study of Drosophila melanogaster with 8 samples.

Results

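Salivary glands of female and male Drosophila melanogaster were compared through 1 long-read cDNA library per sex, which are 2 of the 8 libraries of the series. The other 6 libraries are from eyes and heads of both sexes, ovaries and testes. All flies were of the wild type strain Oregon R, with no transgene or treatment named in the labels, and total RNA was made into cDNA that was enriched for transcripts of qtc (quick-to-court) by amplification of its 3′ and 5′ ends (RACE, rapid amplification of cDNA ends). The series title asks about sex-specific splicing of qtc. Per the labels' protocols, flies were collected on day 5 to 7 after hatching for the isolation of heads, eyes and testes; the stage of the gland donors and the number of animals pooled are not given in the sources used here.

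Estimated counts of transcripts were summed per gene, and the genes compared are the 305 with 50 or more counts in either gland library, of 14292 annotated genes in the table. They held 87.7% of the gene counts of female glands and 86.3% of those of male glands. Levels are counts per 1000000 gene counts of the library (CPM), and ratios are female over male. Each sex has 1 library, so no difference below has a replicate check and no p-value can be given. Intervals are at 95% and cover counting error only, since the reads come from PCR, carry no molecular identifiers and so do not each stand for 1 molecule. Levels and ratios describe amplified libraries, and fewer cells of a type and less RNA per cell cannot be told apart in them.

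The Drosophila salivary gland is a secretory epithelium that is best known from the larva. At the end of larval life its cells make glue proteins, mucin-like and small cysteine-rich proteins encoded by the Sgs and ng genes, which are packed into granules and expelled to fix the puparium to its substrate. Secretion on that scale leans on the translocation of proteins into the endoplasmic reticulum, on vesicle coats and on sugar-adding enzymes of the Golgi, and the larval gland is removed by autophagy and caspases after pupariation.

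Female glands gave 334257 reads and male glands 306701, of which 153733 in females and 134105 in males passed the authors' filter. Estimated counts summed to 152222 in females and 133022 in males. A gene at 0 counts could still have up to 3, which is 19.8 CPM in females and 22.6 CPM in males. Genes above 0 numbered 3674 in females and 3833 in males. Rows named as rRNA or rRNA pseudogenes took 7.93% of the counts in females and 7.86% in males. Across the 305 genes, log2 CPM of female glands had a Pearson r of 0.762 with male glands, against 0.308 to 0.557 with the 6 libraries of other tissues, the highest of these being male eyes. The 305 genes were chosen by their counts in the gland libraries and not in the other 6, so these r values are not on an equal footing. They describe genes of amplified libraries and carry no test.

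Glue protein transcripts, which define the larval salivary gland, were present in both libraries, and larval serum protein transcripts were more abundant still. Of 12 glue genes, 11 had 50 or more counts, and the list made up 2.89% of all counts in females and 2.56% in males. Lsp2, a larval serum protein made by the fat body, was the most counted gene of both libraries, with 18587 counts in females and 17135 in males. An annotated antisense RNA overlaps 84.6% of its exonic bases, and the counts may not separate the strands. The 28 fat body genes together took 18.2% in females and 17.5% in males. Yolk protein genes and fit, transcripts of the adult female fat body, had 1.03 counts in females and 1 in males, whereas female eyes held 135 counts of Yp1 and female heads 325. Y-linked genes and male accessory gland genes were at 0 counts in both gland libraries.

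The typical gene differed little between the sexes, and a minority differed by 2-fold or more. The median log2 ratio was -0.08, with quartiles of -0.61 and 0.43, and 230 of the 305 genes (75.4%) lay within 2-fold. Scaling by TMM factors instead adds 0.13 to every log2 ratio, which turns negative medians closer to 0 than that positive, that of all genes and that of the autosomal arms included. Female glands had 31 genes at 2-fold or more above male glands (10.2%) and 44 at 2-fold or more below (14.4%), or 75 genes (24.6%) in all. Past 4-fold were 7 genes higher in females (2.3%) and 19 lower (6.23%). Because 50 counts in either library sufficed, a gene could enter through the sex in which it was high. Among the 214 genes with 50 or more counts in both libraries, 11 were 2-fold or more higher in females (5.14%) and 10 lower (4.67%), whereas 44 genes entered through females alone and 47 through males alone. CG17985, with 50 counts in females and 28 in males, and Sod1, with 25.2 in females and 50.2 in males, lay just inside the minimum. CG4741, with 7.00 in females and 49.7 in males, and Mpi, with 49.3 in females and 14.1 in males, lay just outside it.

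**Figure D1:**
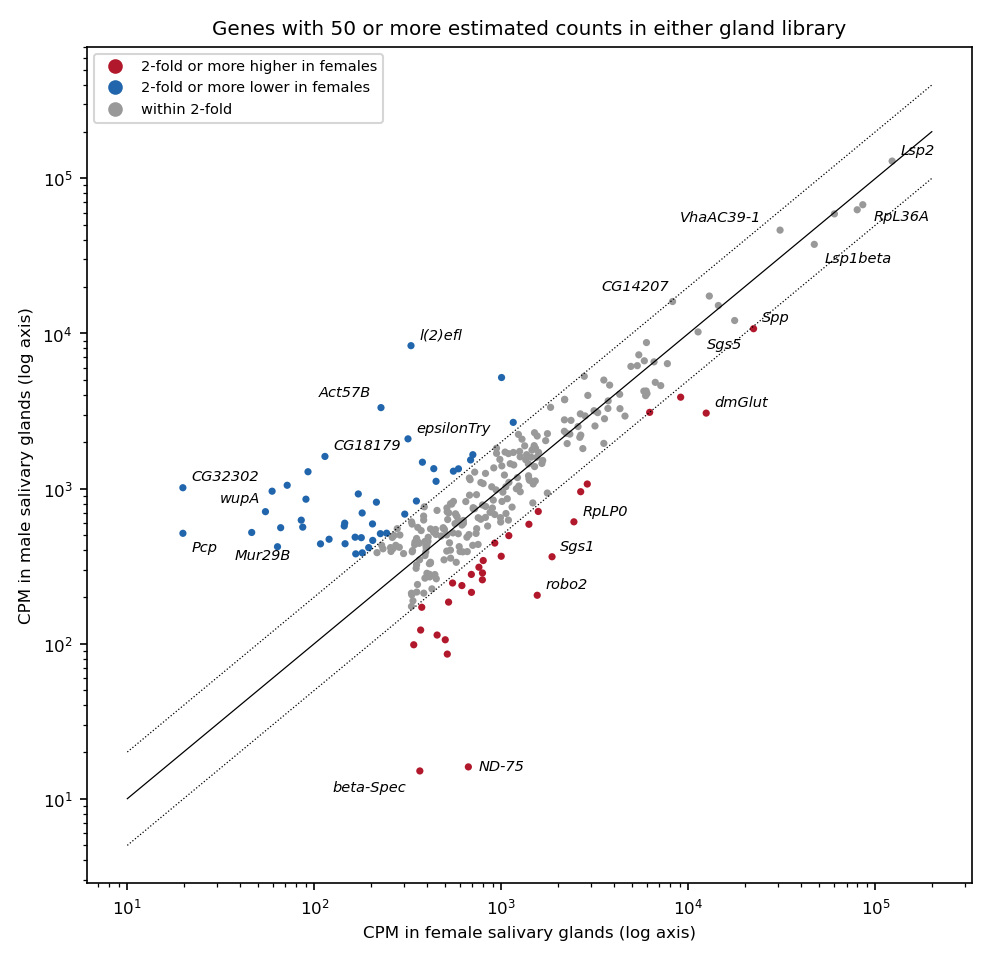
CPM of each of the 305 genes in female glands (horizontal, log axis) against male glands (vertical, log axis), 1 point per gene, with the line of equality and dotted lines at 2-fold. Most points, 230, lie between the dotted lines; l(2)efl and Act57B stand far above them, and ND-75 and beta-Spec far below.

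The size of a ratio was larger than counting error alone gives. The median absolute log2 ratio was 0.55, against a median counting standard error of 0.21. For the 123 genes whose larger count was 50 to 99 these values were 0.61 and 0.28, and for the 65 genes with 300 or more they were 0.42 and 0.089. How much of the excess replicate glands would show was not tested. Of the 75 genes past 2-fold, 23 share exonic bases with another annotated gene, as do 112 of all 305.

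Among the genes 2-fold or more higher in females, those with the most counts were the glutamate transporter gene dmGlut and the signal peptide peptidase gene Spp. dmGlut (FBgn0010497, chromosome 2L, 12027438 to 12034122, BDGP6) had 1884 counts in females and 406 in males, or 12444 CPM in females and 3064 in males. That is 4.06-fold higher in females, with an interval of 3.65 to 4.53. Its heads ran the same way, with 196 counts in females and 22.2 in males, and its eyes did not, with 94.6 in females and 118 in males. Spp, which encodes an intramembrane protease that clears signal peptides from the endoplasmic reticulum, had 3376 counts in females and 1422 in males, a ratio of 2.08 (1.95 to 2.21).

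The highest ratio of all belonged to ND-75, which encodes a core subunit of mitochondrial complex I. ND-75 (FBgn0017566, X, 8248651 to 8251687) had 100.8 counts in females and 2.12 in males, a ratio of 41.5 with an interval of 11.9 to 369.9. Of 40 ND genes in the table, 19 were above 0 counts in females and 20 in males, and 3 reached 50 counts. ND-19 was past 2-fold too, with 56.0 counts in females and 16.2 in males, a ratio of 3.03 (1.73 to 5.72), while ND-SGDH, the most counted, had 329 in females and 367 in males. ND-75 was also higher in females than in males in eyes, with 166 counts in females and 19 in males, and in heads, with 401 in females and 140 in males. The 40 ND genes summed to 591 counts in females and 491 in males, a ratio of 1.05 (0.93 to 1.19). Without ND-SGDH the sum was 262 in females and 124 in males, and it includes ND-75 and ND-19. ND-75 and ND-19 reached 50 counts in females alone, and this family was picked out after its values were seen.

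beta-Spec, which encodes a chain of the spectrin membrane skeleton, had 55.5 counts in females and 2 in males, a ratio of 24.3 (6.35 to 204). The order was the opposite in eyes, with 11.1 counts in females and 49 in males. robo2, encoding a receptor for Slit, had 235 counts in females and 27.2 in males, a ratio of 7.58 (5.10 to 11.8), but antisense and long noncoding RNAs overlap 41.0% of its exonic bases. lva, encoding a golgin, had 77.8 counts in females and 11.3 in males, a ratio of 6.0 (3.28 to 12.9).

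The remaining genes among the 15 highest have varied roles. oys, encoding a lysophospholipid acyltransferase, had 75.9 counts in females and 14 in males. RpLP0, a ribosomal stalk protein gene, had 370 counts in females and 80.8 in males, a ratio of 4.00 (3.14 to 5.15). RpL19 had 51.5 in females and 13 in males, and Non1, a GTPase gene of ribosome assembly, 120 in females and 34.2 in males. obst-J, of a family of chitin-binding proteins, had 105 counts in females and 28.4 in males and had at most 6 counts in any library outside the glands. CG46385 had 79.0 counts in females and 24.5 in males, and CG9449 had 402 in females and 126 in males, or 2.78-fold more in females (2.28 to 3.44). Among genes outside the naming rule, chosen after their values were seen, the nuclear import receptor gene Tnpo had 1376 counts in females and 514 in males, and the serpin gene Spn43Ab 436 in females and 142 in males.

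Glue genes did not move as a block. Sgs1, encoding a large glue mucin, stood apart with 282 counts in females and 48.1 in males, a ratio of 5.14 (3.77 to 7.13). ng1 was past 2-fold as well, with 212 counts in females and 77.9 in males, and Sgs3 had 267 in females and 124 in males, a ratio of 1.88 (1.52 to 2.35). Sgs5, the most counted glue gene, was close to even, with 1705 counts in females and 1356 in males, a ratio of 1.10 (1.02 to 1.18). Eig71Ee had 474 counts in females and 421 in males, Sgs7 397 in females and 283 in males, Sgs8 252 in females and 201 in males, Sgs4 228 in females and 184 in males, and ng3 188 in females and 138 in males. ng2 was lower in females, with 330 counts in females and 495 in males, a ratio of 0.58 (0.51 to 0.67), and Sgs5bis was past 2-fold lower, with 36.9 in females and 68.3 in males. ng1 and ng2 are neighbours on X with similar products, so reads of one may have been assigned to the other. ng4 was at 0 in both. Over the 11 glue genes at 50 counts, 2 were past 2-fold higher and 1 lower, with a median log2 ratio of 0.14, against -0.08 over all 305 genes. Sgs1 reached 50 counts in females alone and Sgs5bis in males alone.

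Genes of the glue-making machinery were low or modestly higher in females. fkh and sage, the transcription factor genes that set gland identity and glue expression, had few counts: fkh had 21.4 in females and 10.6 in males, and sage 12.8 in females and 17 in males. The gland prolyl hydroxylase gene PH4alphaSG1 had 2 counts in females and 1.82 in males and PH4alphaSG2 was at 0 in both. Pgant1, which encodes an enzyme that starts mucin-type O-glycans, had 534 counts in females and 259 in males, a ratio of 1.80 (1.55 to 2.10). It held most of the counts of its 20-gene list, which summed to 1.64-fold higher in females with Pgant1 and 0.91-fold without it (interval 0.63 to 1.31).

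On the lists of endoplasmic reticulum and vesicle coat genes, which do not hold Spp or lva, no gene with 50 counts was past 2-fold. Of 39 genes for translocation into and folding in the endoplasmic reticulum, 7 reached 50 counts, with a median log2 ratio of 0.39. Ost48, an oligosaccharyltransferase subunit gene, had 652 counts in females and 434 in males, and CaBP1, a disulfide isomerase gene, 173 in females and 100.6 in males. Hsc70-3, the gene of the BiP chaperone, had 112 counts in females and 73.0 in males and Calr, the calreticulin gene, 73.9 in females and 74.0 in males. The list summed to 1.22-fold higher in females (1.13 to 1.32). Of 32 vesicle coat and Golgi genes, 4 reached 50 counts, and their sum was 1.02 times as high in females (0.94 to 1.11).

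**Figure D2:**
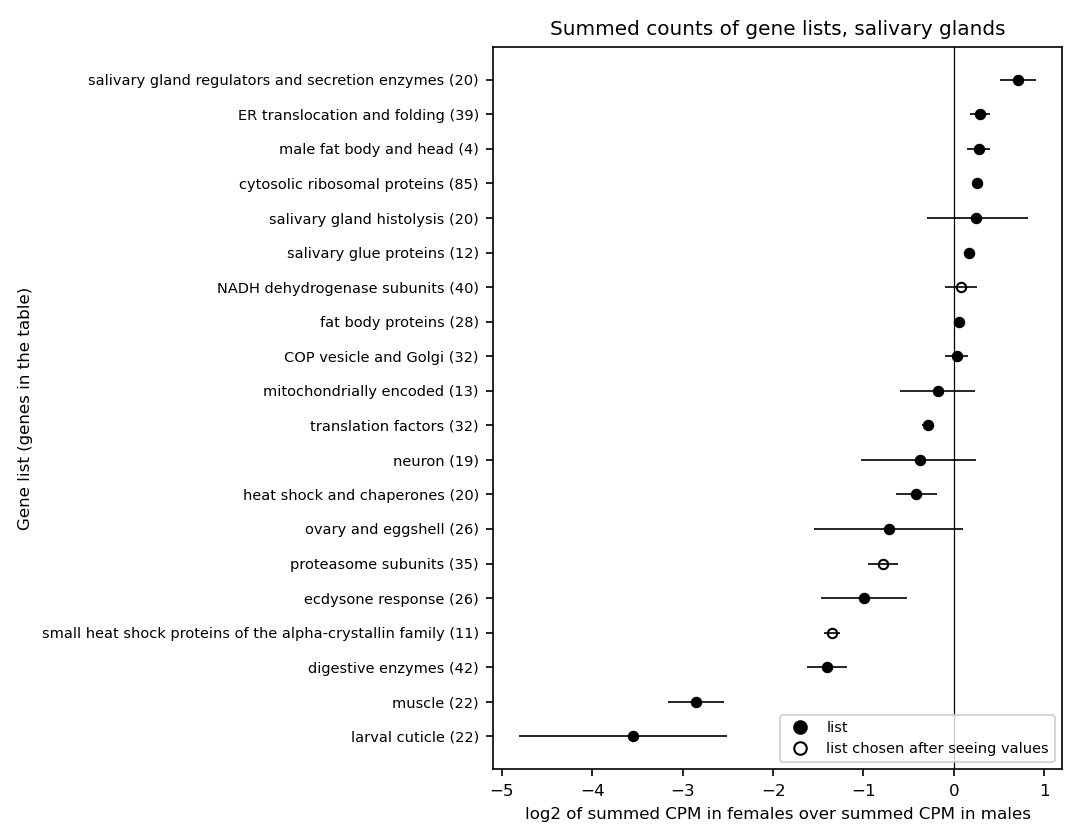
Log2 ratio of summed CPM, female over male glands, for gene lists with 50 or more counts in all (number of genes in the table in brackets); points are sums over all members, bars are 95% counting intervals, and open points are lists chosen after their values were seen. Muscle and larval cuticle lists lie lowest, and most secretory and synthetic lists lie within 2-fold of even.

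The 85 ribosomal protein genes made up 23.4% of all counts in females and 19.6% in males, and RpL36A and RpS3 held most of these. Without RpL36A, but with RpS3, the list summed to 22464 counts in females and 16995 in males, a ratio of 1.16 (1.13 to 1.18). RpL36A had 12952 counts in females and 8960 in males, a ratio of 1.26 (1.23 to 1.30), and RpS3 had 12091 in females and 8312 in males, a ratio of 1.27 (1.24 to 1.31). RpS3A ran the other way, with 1958 counts in females and 2309 in males, a ratio of 0.74 (0.70 to 0.79). Of 28 ribosomal genes at 50 counts, RpLP0 and RpL19 were past 2-fold higher and none was past 2-fold lower, and the median log2 ratio was 0.08. RpL19 reached 50 counts in females alone. Translation factor genes took 2.63% in females and 3.22% in males, with none of 10 past 2-fold and a median of -0.17. VhaAC39-1, a subunit gene of the vacuolar proton pump, had 4678 counts in females and 6145 in males, a ratio of 0.67 (0.64 to 0.69).

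The fat body list without Lsp2 summed to 1.29-fold higher in females (1.25 to 1.33), and its members differed in direction. Lsp1beta had 7129 counts in females and 4974 in males, a ratio of 1.25 (1.21 to 1.30), and Lsp1gamma 874 in females and 563 in males. Lsp1alpha, on the X, had 238 counts in females and 94.2 in males, a ratio of 2.21 (1.74 to 2.84). The calcium-binding protein gene regucalcin had 105 counts in females and 37.0 in males and Idgf2, of the chitinase-like growth factors, 114.8 in females and 41.2 in males. Of 8 fat body genes at 50 counts, these 3 were past 2-fold higher and none lower, with a median log2 ratio of 0.44. Of the 3, regucalcin and Idgf2 reached 50 counts in females alone, the sex in which they were higher. Fbp1, encoding a receptor for larval serum proteins, had 50.5 counts in females and 51.8 in males. Among members under 50 counts, bmm, the Brummer lipase gene, had 11 counts in females and 25.4 in males, a ratio of 0.38 (0.17 to 0.81), and Pepck1, of gluconeogenesis, 0 in females and 7.47 in males. Fat body lies against the larval gland, and its part in the other differences was not tested.

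The lowest ratios were those of CG32302, l(2)efl and Pcp, of which l(2)efl had the most counts. l(2)efl (FBgn0011296, 2R, 23684651 to 23685543), encoding a small heat shock protein of the alpha-crystallin family, had 49.8 counts in females and 1105 in males, or 329 CPM in females and 8342 in males. That is 25.4-fold more in males, with an interval of 19.0 to 34.2. Heads ran the other way, with 4174 counts in females and 1598 in males, and so did eyes, with 817 in females and 331 in males.

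Other members of that family differed less. CG14207 had 1245 counts in females and 2129 in males, 1.95-fold more in males (1.82 to 2.10). Hsp27 had 160 counts in females and 91.5 in males, and Hsp23 had 61.3 in females and 60.5 in males. Hsp83, encoding the Hsp90 chaperone, had 65.9 counts in females and 178 in males, 3.09-fold more in males (2.31 to 4.15). Of 20 heat shock and chaperone genes in the table, which leave out l(2)efl and CG14207, 3 reached 50 counts, and Hsp83 was the one past 2-fold.

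Summed over the list, muscle transcripts were lower in female glands. Act57B (FBgn0000044, 2R, 20944021 to 20946431), a muscle actin gene, had 34.4 counts in females and 440.5 in males, 14.6-fold more in males (10.4 to 21.7). wupA, encoding troponin I, had 8.29 counts in females and 94.0 in males, 13-fold more in males (6.5 to 32), and Tm1, encoding tropomyosin, had 31.0 in females and 78.3 in males. The actin gene Act87E had 2 counts in females and 24 in males, and since actin genes have near-identical copies their counts are uncertain. Act57B, wupA and Tm1 were the 3 of 22 muscle genes that reached 50 counts, and all were past 2-fold lower in females. All 3 reached 50 counts in males alone, so the count minimum itself favoured this direction. With no count minimum, the median log2 ratio was -0.95 over 15 muscle genes and -0.19 over all 4844 genes. That setting includes genes with very few counts, and 60.3% of all genes were past 2-fold in it. The list summed to 105 counts in females and 661 in males, and without Act57B to 70.5 in females and 220 in males. Mhc, the muscle myosin heavy chain gene, was at 0 in both libraries, and Mlc2, a myosin light chain gene, had 9 counts in females and 5 in males.

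Digestive enzyme transcripts were also lower in females. epsilonTry, a trypsin gene, had 47.9 counts in females and 277 in males, 6.6-fold more in males (4.84 to 9.16), and its neighbour deltaTry had 21.9 in females and 76.0 in males. Phae2, a trypsin-like protease gene, had 50.5 counts in females and 78.1 in males, and the Jonah protease gene Jon65Aiii had 55.3 in females and 46 in males. Of 42 digestive enzyme genes, 4 reached 50 counts, 2 were past 2-fold lower and none higher. Those 2, epsilonTry and deltaTry, reached 50 counts in males alone. The list made up 0.162% of all counts in females and 0.430% in males, and without epsilonTry the sum in females was 0.59 times that in males (0.49 to 0.71). Mur29B, a mucin-related gene, had 7.00 counts in females and 69.0 in males. Peritrophin-15a, a gene for a protein of the gut lining, had 32.5 counts in females and 108 in males. Peritrophin-15a lies outside the naming rule and was chosen after its values were seen. The part that attached gut, muscle or cuticle played in these differences was not tested.

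Of the remaining low genes, CG32302 had the most extreme ratio, with 3 counts in females and 134 in males, 51.1-fold more in males with an interval of 17.1 to 250.6, and 0 counts in the 6 other libraries. Pcp, a pupal cuticle protein gene, had 3 counts in females and 68.1 in males, 25.9-fold more in males (8.50 to 128.7). It made up most of the cuticle list, whose 22 genes summed to 8.03 counts in females and 82.1 in males and without Pcp to 5.03 in females and 14 in males. Ho, the heme oxygenase gene, had 12.9 counts in females and 82.8 in males, and Sans, a scaffold protein gene, 10.0 in females and 74.1 in males.

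The less characterised low genes fell in the same range. CG18179 had 17.2 counts in females and 213 in males, CG7953 14 in females and 170.0 in males, and CG6277 10.8 in females and 139 in males. CG10912 had 9 counts in females and 127 in males, CG3868 13.7 in females and 113 in males, and CG43324 9.62 in females and 55.8 in males. The 19 genes past 4-fold lower summed to 463 counts in females and 4128 in males, or 0.306% of all counts in females and 3.12% in males. Of these 19, 11 had under 5 counts in both head libraries, against 53 of all 305 genes, and 12 were higher in female than in male eyes, against 162 of 305. Of the 7 genes past 4-fold higher, 1 had under 5 counts in both head libraries and 2 were higher in female than in male eyes.

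**Figure D3:**
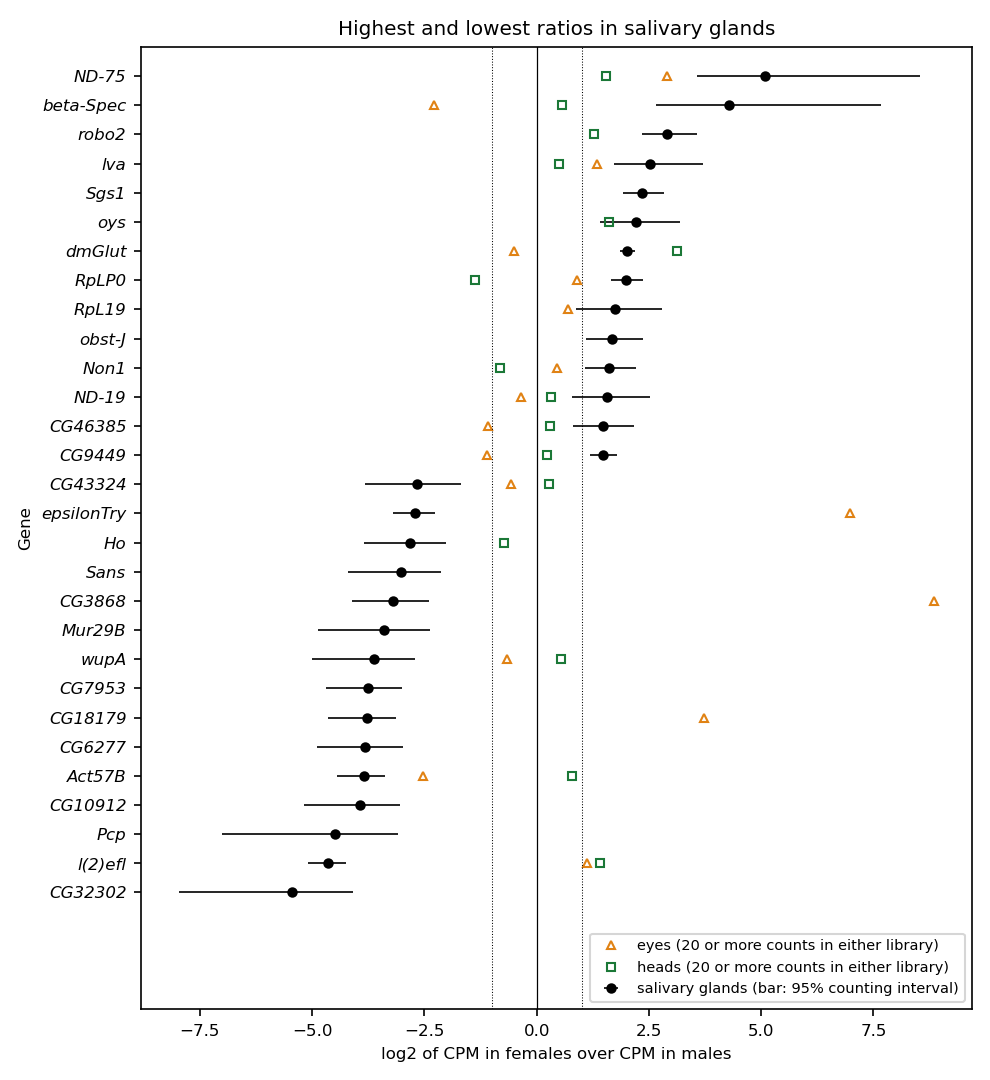
Log2 CPM ratio, female over male, of 14 of the 15 highest genes and the 15 lowest in salivary glands (filled points, bars are 95% counting intervals), with the same ratio in eyes (triangles) and heads (squares) where either library had 20 or more counts; dotted lines mark 2-fold. dmGlut is high in glands and heads, and l(2)efl is low in glands and above 0 in eyes and heads.

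Proteasome subunit genes, a family picked out after its values were seen, were lower in females as a sum, with members in both directions. Rpn11, encoding the deubiquitinating subunit of the lid, had 107 counts in females and 219 in males, 2.35-fold more in males (1.85 to 2.98). Prosalpha4 had 67.7 counts in females and 147 in males, Sem1 25.0 in females and 64.3 in males, and Rpt3 31.1 in females and 61.3 in males. These were the 4 of 35 proteasome genes at 50 counts. Rpn11 and Prosalpha4 had 50 counts in both libraries, whereas Sem1 and Rpt3 reached it in males alone, the sex in which they were higher. Among the less counted members, Prosbeta3 had 38.4 counts in females and 25.1 in males and Rpn8 20.7 in females and 4.00 in males, and the family summed to 492 counts in females and 741 in males.

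Apart from Obp99b, the listed genes that differ by sex in other fly tissues gave few counts. Sxl, dsx and fru, of the sex determination pathway, were at 0 in both gland libraries, and tra was at 0 in females and 1 in males. msl-2, which drives male dosage compensation, had 2 counts in females and 4 in males. Obp99b, an odorant binding protein gene also known as turn on sex-specificity and male-biased in adult fat body, had 1168 counts in females and 846 in males. Its ratio of 1.21 (1.10 to 1.32) was on the female side, whereas heads had 1.98 counts in females and 19.1 in males. Ldh, the lactate dehydrogenase gene, had 16.3 counts in females and 58.3 in males and was the one gene of 26 on the ecdysone response list with 50 counts. Ldh reached them in males alone, the sex in which it was higher. Without Ldh the list summed to 44.2 counts in females and 47.2 in males, a ratio of 0.82 (0.53 to 1.26). Genes of the Eig71E puff cluster other than Eig71Ee summed to 3 counts in females and 23.8 in males, and cell death and autophagy genes to 67.1 in females and 49.4 in males.

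Position and length of a gene were weakly related to its ratio. The 55 genes on X had a median log2 ratio of 0.04, with 8 past 2-fold higher and 4 lower, and the 246 on the autosomal arms had -0.12, with 23 higher and 40 lower. Across the 305 genes, Spearman's rho between the ratio and the transcript length was 0.099. The 26 genes whose mean gland CPM was 20 times or more that of any other library had a median of 0.06, with 3 past 2-fold higher and 5 lower.

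The gland ratios were not those of the other tissues. In eyes, 63.3% of 335 genes with 50 or more counts in either library were past 2-fold, and in heads 22.4% of 299. Ovary and eggshell genes took 8.37% of all counts in female eyes and 0.026% in male eyes. Phototransduction genes took 5.95% in female eyes and 22.7% in male eyes. What part such differences between the eye libraries had in the eye ratios was not tested. Of the 75 genes past 2-fold in glands, 27 had 50 counts in an eye library, of which 5 were past 2-fold in the same direction and 10 in the opposite one. In heads it was 29, with 5 the same and 6 opposite. Over all genes ranked in both pairs, Pearson's r between the ratios was -0.19 for eyes (145 genes) and -0.08 for heads (148 genes), as a description over genes measured in the same libraries.

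The main annotated transcript, the one with most counts of its gene, was compared in the 271 genes with 20 or more counts in both gland libraries. In 61 of them (22.5%) it differed between females and males, and in 29 (10.7%) the Wilson intervals of the share of the female main transcript were also apart. The share of counts that would have to move to make both libraries alike was 8.77% for the median gene (quartiles 2.07% and 19.4%). Eyes gave 53 differing genes of 218 (24.3%) and heads 82 of 339 (24.2%). CG3788, with 20 counts in females and 22 in males, lay just inside the minimum, and sigmar, with 19.9 in females and 37.2 in males, just outside it.

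In 5 genes the libraries used wholly different transcripts. Capr (FBgn0042134, 3L, 18668153 to 18673324, minus strand), encoding Caprin, an RNA-binding protein, had all 72.1 female counts on RB and all 65.4 male counts on RA. The pair code for the same protein, and RB has 164 more bases at its 5′ end. In heads, RB had 24.1 counts in females and 0 in males, and RA 0 in females and 29.4 in males. Eyes of both sexes were wholly on RB, with 40.3 counts in females and 11.1 in males, and ovaries wholly on RA with 955.

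Hn, encoding phenylalanine hydroxylase, had 80.9 counts in females, all on RA, and 53.1 in males, all on RC, which lies within RA and lacks 98 bases. RC was the main transcript in heads of both sexes, with 82.6 counts in females and 109 in males. Eyes had the opposite exchange to glands. All 86.2 counts in female eyes were on RC, and male eyes had 74.8 on RA and 54.7 on RC. Sar1, encoding the GTPase that starts COPII vesicles, had all 36.9 counts on RA in females, and 82.8% of 48.5 on RE in males. The first exons of RA and RE start 832 bases apart, and both have 579 coding bases. CHOp24, encoding a cargo receptor of the p24 family, had 46.2 counts in females on RA and 26.1 in males on RB, which differ by 68 bases at the 3′ end. The acid phosphatase gene Acph-1 had 23.6 counts in females on RB and 27.2 in males on RA, transcripts of 1365 coding bases for RB and 1314 for RA.

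**Figure D4:**
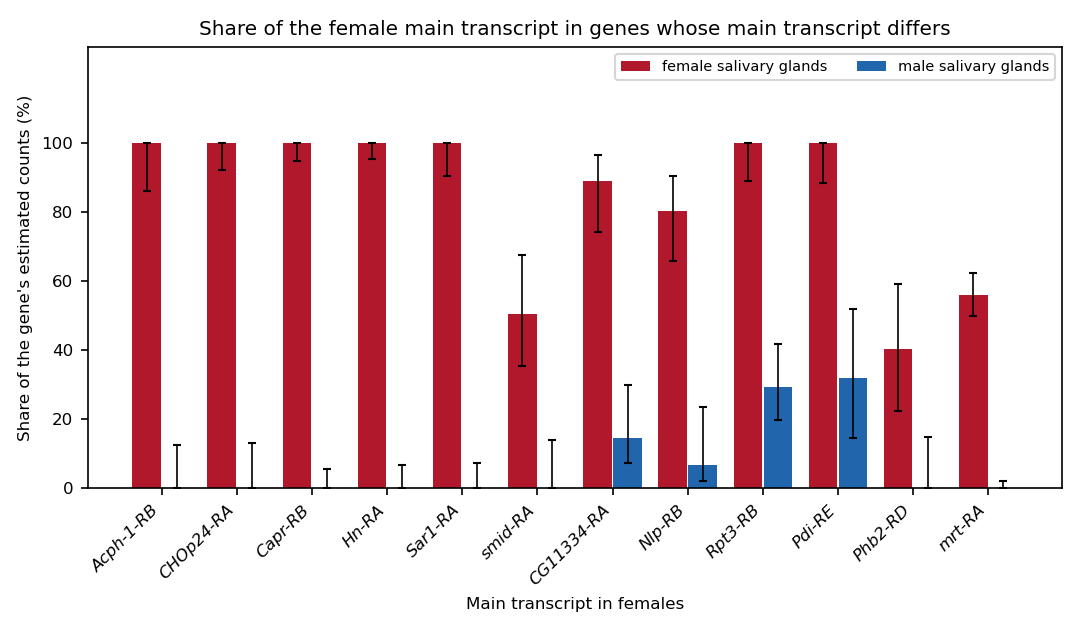
Share of a gene's estimated counts (%, vertical) on the transcript that leads in females, in female (left bar) and male (right bar) glands, for the 12 genes with the largest exchange whose intervals are apart; bars carry 95% Wilson intervals. The first 5 genes are at 100% in females and 0 in males.

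The other exchanges were partial. mrt rested on the most counts of these 12, with 249 in females and 192 in males, and RA held 56.1% in females (50% to 62.2%) and 0% in males, where RF held all. mrt-RA was at 0 in the 6 other libraries too. CG11334 had RA at 89.1% of 29.9 counts in females and 14.4% of 39.3 in males. Its heads also had RA ahead in females, with 29.3 counts on RA and 12.4 on RB, and RB ahead in males, with 15.3 on RA and 66.7 on RB. Rpt3 had RB at 100% in females and 29.4% in males, and Nlp, a nucleoplasmin-like histone chaperone gene, had RB at 80.3% in females and 6.71% in males. In heads Nlp ran the other way, on few counts. Females had 4.02 on RB and 17.1 on RA, and males 18.6 on RB and 6.39 on RA. Pdi, encoding protein disulfide isomerase, had RE at 100% in females and 31.8% in males. smid and Phb2 had no count in males on the transcript that led in females, with 50.5% and 40.2% of the female counts on it.

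Most of these exchanges lay outside the coding sequence, between transcripts that few bases tell apart. In 22 of the 29 genes with intervals apart the 2 transcripts had the same coding bases, and in 20 one transcript lay within the exons of the other. They started at another position in 14 and ended at another in 10. A median of 164 exonic bases told the transcripts apart (60 to 1453), and 8 genes had under 100 such bases. Reads had a mean length of 574 bases in females and 575 in males before the filter, so a read that misses these bases does not tell the transcripts apart, and the intervals do not cover this. In 10 of the 29 genes another annotated gene overlaps. Of the 61 differing genes, 36 were compared in heads, where 13 differed and 5 made the same exchange, and 16 in eyes, where 6 differed and 2 made the same exchange.

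Of the 146 genes with 50 or more counts in both libraries, 30 differed in their main transcript (20.5%). Pgant1 kept RB as its main transcript, but RB held 44.4% in females (40.2% to 48.6%) and 100% in males (98.5% to 100%). Cpr49Ac, of a cuticle protein family and named after its values were seen, had RC at 86.8% in females and 63.4% in males. Among the most counted genes, RpL36A had 66.6% on RB in females and 65.5% in males, and Lsp2 52.5% in females and 53.0% in males on RA. Lsp1beta is among the 61 genes through a narrow margin, with RA at 50.8% (49.7% to 52.0%) of 7129 counts in females and 46.4% (45.1% to 47.8%) of 4974 in males. RpS3 had RB at 22.8% in females and 14.9% in males. l(2)efl had RC at 0% in females and 16% in males, and CG9449 had RF at 0% in females and 33.1% in males.

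The enriched gene itself, qtc (FBgn0028572, 2L, 5060815 to 5070750, plus strand), had 900 counts in females and 564 in males, or 5943 CPM in females and 4255 in males. That is 1.40-fold higher in females (1.26 to 1.55), in libraries made with primers for it. By the authors' read numbers, 3407 reads in females and 2331 in males mapped to the qtc locus. The estimated counts are thus well below the locus reads, and the shares and intervals below cover the estimated counts only. Why they differ was not tested. RA led in both sexes, at 29.7% of the counts in females (26.8% to 32.7%) and 54.4% in males (50.3% to 58.5%), and 48.1% of the counts would have to move to make the mixes alike. RH was also lower in females, at 1.87% (1.18% to 3%), against 20.3% in males (17.1% to 23.7%). RE was higher, at 24.8% in females (22.2% to 27.8%) and 13% in males (10.4% to 16%). RI took 13.4% of the counts in females (11.4% to 15.8%) and RB 12.8% (10.8% to 15.1%), and both were at 0 in males, where the Wilson interval reaches 0.677% and 3 counts would be 0.532%. RG took 14.8% in females (12.6% to 17.2%) and 4.74% in males (3.31% to 6.88%), and RF 2.53% in females and 7.32% in males. RI lies within the exons of RA, so reads inside it do not tell the pair apart. Other pairs are close in annotated length, RB and RI with 2355 and 2384 bases and RE and RF with 2698 and 2694. How well reads tell these apart was not tested, and the intervals do not cover it. RJ, RK, RL and RN were at 0 in both.

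**Figure D5:**
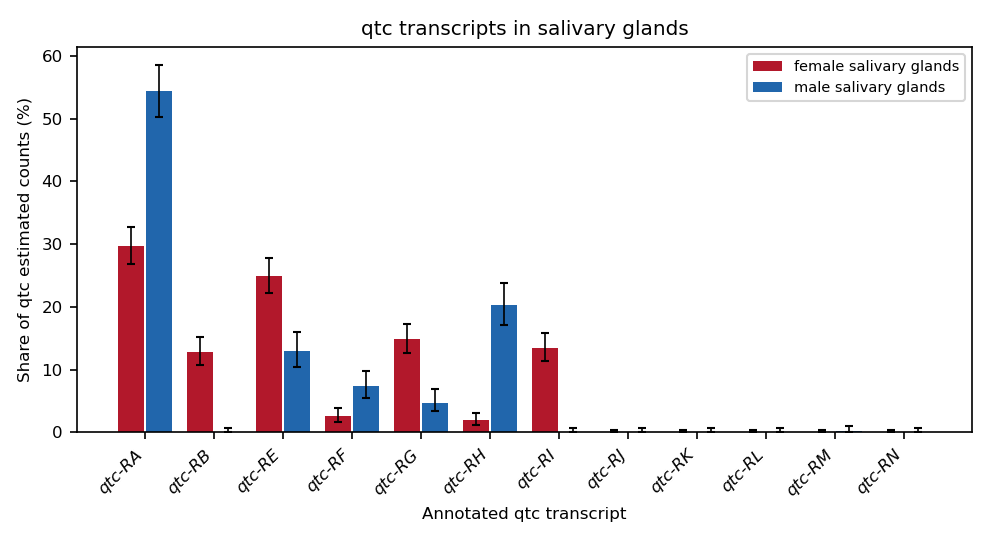
Share of qtc estimated counts (%, vertical) on each of the 12 annotated transcripts in female (left bar) and male (right bar) glands, with 95% Wilson intervals. RB and RI have counts in females alone, and RA leads in both.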

How the data were processed

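Per the file headers, the authors deposited estimated counts and TPM (length-corrected transcript shares) for 31089 transcripts per library, and a table of read counts per library; estimated counts need not be whole. The submitters' processing notes name Minimap2, Salmon, edgeR and BDGP6 with no version or role, and the sources used here do not give the read filter. By transcript ID, 31048 matched the BDGP6 gene annotation, and the 41 others held 0.535% of the counts in females and 0.405% in males. Gene sums were divided by the matched total (CPM). Log2 ratios carry an offset worth 0.5 counts in each library, whereas folds are ratios of CPM without offset.

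Intervals are exact binomial (Clopper-Pearson) for ratios and Wilson for shares, in Python 3.11.15 with scipy 1.17.1. TMM factors came from edgeR 4.0.16 in R 4.3.3, and the computation was tested on simulated data. Each group is 1 library by the tissue and sex in the labels, so no test was run. Named are the 15 highest and 15 lowest ratios, the 10 most counted genes of each library, rRNA rows left out, the 12 largest transcript exchanges with intervals apart, sex genes, qtc and list members; 1 of the highest is not reported here. Members and lists were chosen with earlier results of these data known; the proteasome, ND and small heat shock protein families were added after their values were seen. A few other genes were named after their values were seen, as marked. roX genes and sequences were not analysed here. Alternatives were another scaling, unit, offset, count minimum, and transcript minimum, unit and overlap.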

Additional observations from a re-analysis of the deposited data

Results flagged for a closer look

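Of the 30 most extreme genes, 5 were past 2-fold one way in salivary glands and past 2-fold the other way in eyes or heads. Only genes with 50 or more counts in a library of that tissue could qualify. Of all genes past 2-fold in glands and so counted, 10 of 27 were opposite in eyes and 6 of 29 in heads. In eyes 63.3% of 335 genes were past 2-fold either way. With 1 library per group the difference between tissues was not tested. RpLP0 had a log2 ratio of 1.99 in glands and -1.38 in heads, where females had 37.5 counts and males 99.7. CG46385 had 1.47 in glands and -1.08 in eyes, with 99.5 eye counts in females and 185 in males. l(2)efl had -4.65 in glands, 1.11 in eyes and 1.40 in heads, on 331 or more counts in each eye and head library. CG3868 had -3.20 in glands and 8.85 in eyes, with 264 eye counts in females and 0 in males. epsilonTry had -2.71 in glands and 6.97 in eyes, with 71.0 eye counts in females and 0 in males. The eye values of these last 2 genes depend on the offset, since males were at 0. Digestive enzyme genes made up 1.61% of all counts in female eyes and 0.0048% in male eyes, and its part in the eye values was not tested.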

How the results depend on the processing

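All 30 extreme genes kept their direction, within their counting intervals, under TMM scaling, deposited TPM, an offset worth 2 counts, and totals without rRNA-named genes and qtc. TMM scaling raised every log2 ratio by 0.13, so that the median of all genes became 0.05, with 34 genes past 2-fold higher and 41 lower; it moved the list medians of vesicle coat genes to 0.068, which changes sign, of translation factors to -0.039 and of ribosomal genes to 0.21. TPM gave 30 higher and 47 lower. A minimum of 20 counts gave 65 higher and 92 lower of 591 genes; 100 counts gave 21 and 21 of 182, a digestive list median of -2.71 on 1 gene and a translation factor median of -0.28; no minimum gave 1322 and 1598 of 4844, and a muscle median of -0.95 over 15 genes. Main transcripts differed in 30 of 146 genes at 50 counts in both libraries, in 29 with intervals apart, in 37 of 159 without exon overlap, and by TPM in 56, of which 43 were among the 61. No paired analysis was possible because each group has 1 library, and for the same reason no replicate could be left out. Depth limits genes near 20 counts, and a share of 0 there allows a large interval.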

Other observations

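Some gland-restricted genes that the lists do not hold were among the well-counted ones, named here after their values were seen. CG34166 had 2674 counts in females and 1606 in males, a ratio of 1.46 (1.37 to 1.55), against 38.2 counts at most in any library outside the glands. CG12715 had 940 counts in females and 411 in males, a ratio of 2.00 (1.78 to 2.25), and 0 in the 6 other libraries, but an antisense RNA overlaps 22.4% of its exonic bases. CG7567 was on the other side, with 175 counts in females and 354 in males, 2.31-fold more in males (1.92 to 2.79), and at most 5 counts elsewhere.

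Among broadly expressed genes, mlt and crb were named after their values were seen. The gene mlt, encoding a tubulin folding cofactor, had 151.7 counts in females and 689 in males, 5.19-fold more in males (4.34 to 6.22). Heads ran the other way, with 1832 counts in females and 510 in males. crb, encoding the apical polarity protein Crumbs, had 89.2 counts in females and 178 in males, and was lower in females in eyes, with 47.0 counts in females and 99.7 in males, and in heads, with 26.1 in females and 61.1 in males. epsilonTry, the trypsin gene of the low group, had 311 counts in ovaries, more than in either gland library.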
